A study of Homo sapiens with 20 samples.

Results

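RNA levels of 40 heat shock chaperones, their cochaperones and the heat shock factors were followed in multiple myeloma cell lines that had been evolved in culture to tolerate proteasome inhibitors. The genes were chosen by symbol from a list of HSP70, HSP90, small HSP, J-domain, BAG and cochaperone genes, and all 40 were found among the 18305 genes measured. Of them, HSPA9, HSPD1, HSPE1 and TRAP1, encode chaperones of mitochondria, HSPA13 encodes a protein of the endoplasmic reticulum and HSPB11 encodes a component of cilia, so that the name cytosolic does not cover every gene. RNA-seq covered 3 lines of myeloma (AMO1, L363, RPMI-8226) and ARH-77, a line of B-lymphoblastoid type, each as wild-type (WT) and as bortezomib-resistant (BtzR) cells. AMO1 and L363 were also studied as carfilzomib-resistant (CfzR) cells, which makes 10 groups of 2 biological replicates. All cells were grown in the same serum-supplemented RPMI-1640 medium, and the resistant cells in 90 nM of their drug, so that the presence of the drug and the evolved resistance cannot be told apart. Whether a resistant line was 1 clone is not given in the sources used here. Bortezomib and carfilzomib both block the proteasome, the enzyme complex that degrades unwanted proteins, the former reversibly and the latter irreversibly. In bulk RNA a lower level can mean fewer cells that express a gene or less RNA in each cell.

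HSP70 proteins bind exposed hydrophobic stretches of unfolded proteins in cycles of ATP hydrolysis. J-domain proteins deliver the client and start the hydrolysis, HSP110 and BAG proteins exchange the nucleotide, and STIP1 hands clients on to HSP90, which completes the folding of kinases and receptors. Small HSPs hold unfolded proteins without ATP. Heat shock factor 1, encoded by HSF1, switches on many of these genes when unfolded proteins accumulate, which is a known effect of acute proteasome inhibition, and plasma cells carry a heavy load of newly made immunoglobulin.

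Values are FPKM, fragments divided by the length of the transcript and the size of the library, and can be compared between genes because they are given per length. No read counts were at hand, and sequencing depth and counting error therefore remain unknown. FPKM of all genes summed to between 457317 and 494850 in the 20 libraries. The libraries labelled AMO1 CfzR stood apart from their label: their log2(FPKM + 1) values correlated with those of the L363 libraries with r between 0.986 and 0.992 and with those of the other AMO1 libraries with r between 0.878 and 0.883, whereas replicates of 1 group correlated with r between 0.986 and 0.998. Over the 36 chaperone genes tested below, the ranges were 0.989 to 0.998 with L363 and 0.930 to 0.962 with AMO1. They are called the libraries labelled AMO1 CfzR below and were set against both AMO1 WT and L363 WT. As to the labelled cell types, 7 of 8 plasma cell marker genes reached 1 FPKM in all 16 myeloma libraries and 7 of 8 also in the 4 ARH-77 libraries. The exception was SLAMF7 in myeloma, with a mean of 0.78 FPKM in RPMI-8226 WT, and PRDM1 in ARH-77, with 0.535 in BtzR cells. The 8 genes summed to 851.92 to 4175.19 FPKM in the myeloma libraries and to 298.52 to 347.6 in ARH-77. The B-cell genes MS4A1, PAX5 and CD22 stayed below 1 FPKM in the myeloma libraries and reached it in ARH-77. Other B-cell genes did not follow the labels: CD79B averaged 51.9 FPKM in AMO1 WT and 36.3 in ARH-77 WT, and CIITA 97.3 in AMO1 BtzR and 56.9 in ARH-77 WT. Their part in the results was not tested.

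HSPA1A and HSPA1B encode the stress-inducible HSP70 and are the pair on which several results turn. They lie close together on chromosome 6, and in the reference transcripts their coding sequences of 1926 bases differ at 4 bases, an identity of 99.79%. Of all 50-base words of the HSPA1A transcript, 72.56% also occur in HSPA1B, so that the division of reads between them is uncertain. The 250 bases before the start of each gene are shown because they too are almost alike, with 235 of 249 aligned bases identical (94.4%). They are from RefSeq on GRCh38.p14 (HSPA1A chr6:31815293-31815542 and HSPA1B chr6:31827488-31827737, both on the plus strand), which may not be the build the authors used, and are read 5′ to 3′ with the heat shock motif pair GAANNTTC in capitals.
HSPA1A: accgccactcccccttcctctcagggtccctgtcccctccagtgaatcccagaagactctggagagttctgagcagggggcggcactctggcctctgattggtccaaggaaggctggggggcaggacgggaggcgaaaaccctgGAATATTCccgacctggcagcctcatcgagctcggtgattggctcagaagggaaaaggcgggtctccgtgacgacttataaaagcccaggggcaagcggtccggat
HSPA1B: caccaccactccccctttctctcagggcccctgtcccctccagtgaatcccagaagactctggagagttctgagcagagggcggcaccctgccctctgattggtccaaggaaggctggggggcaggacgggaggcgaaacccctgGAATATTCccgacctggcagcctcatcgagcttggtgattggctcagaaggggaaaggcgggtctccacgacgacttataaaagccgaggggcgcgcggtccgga

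Heat shock factors bind repeats of the unit GAAN in alternating orientation. A pair of such units, GAANNTTC or TTCNNGAA, which both read the same on the other strand, was searched in the RefSeq windows from 250 bases before to 50 bases after each start. Windows were found for 34 of the 40 genes, and not for HSPB11, CRYAB, HSPA14, HSF1, ST13 and FKBP4. A pair occurred in 21 of 49 windows of these genes (42.9%), and in 13.5% of all 35116 windows. A run of 3 alternating units, each 2 bases apart and so holding overlapping pairs, occurred in 8 of the 49 windows (16.3%) and in 0.49% of all windows. The stretches around the run nearest to the start are shown for 5 genes whose RNA is described below, with the motif in capitals. The HSPA8 stretch is chr11:123062155-123062215 on the minus strand, HSPA6 chr1:161524442-161524502 on the plus strand, HSP90AA1 chr14:102087096-102087156 on the minus strand, DNAJB6 chr7:157336849-157336909 on the plus strand and CHORDC1 chr11:90223063-90223133 on the minus strand, all in GRCh38.p14.
HSPA8: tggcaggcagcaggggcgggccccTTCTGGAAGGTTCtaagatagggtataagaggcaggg
HSPA6: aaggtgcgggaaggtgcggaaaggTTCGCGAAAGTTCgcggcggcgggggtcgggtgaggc
HSP90AA1: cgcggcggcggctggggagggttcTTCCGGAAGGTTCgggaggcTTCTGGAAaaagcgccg
DNAJB6: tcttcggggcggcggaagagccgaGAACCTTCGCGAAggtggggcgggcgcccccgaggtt
CHORDC1: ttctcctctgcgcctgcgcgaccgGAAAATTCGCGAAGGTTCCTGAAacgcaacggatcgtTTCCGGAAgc
The 5 genes were picked from 8 with such a run, and HSP90AB1, HSPD1 and DNAJA1 are not shown. By the test described below, these and HSPA8 passed in none of the 5 comparisons of resistant with WT cells of the same line. HSPA6 and HSP90AA1 passed as higher in AMO1 BtzR, and CHORDC1 as lower in RPMI-8226 BtzR. DNAJB6 passed as lower in L363 CfzR and in the BtzR cells of AMO1, L363 and RPMI-8226. The part of the motif in these changes was not tested. A match describes the letters in this window and not a site in use.

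The chaperone genes spanned a wide range of levels in every group. On average over the 20 libraries HSPA8, the constitutive cytosolic HSP70, was the highest, at 890.3 to 3131 FPKM with a median of 1374 over the libraries, and the constitutive HSP90 gene HSP90AB1 followed at 754.2 to 1692 FPKM, though it was above HSPA8 in all RPMI-8226 libraries. These genes and HSP90AA1, HSPA9, HSPB1, HSPD1, HSPE1, STIP1 and TRAP1 were at or above 100 FPKM in all 20 libraries. At the other end, HSPA1L, HSPA12A, DNAJA4 and CRYAB did not reach a mean of 1 FPKM in any group, with highest values of 0.99, 0.35, 0.42 and 0.56 FPKM, and were not tested. HSPA2 was tested because of AMO1 BtzR alone and HSPB8 because of ARH-77 WT alone, the only groups in which they reached that mean. Both thus had to differ between groups to be tested, and no p is given for them in comparisons of 2 groups that include these. The F tests below that take in these groups are a description for these genes. That left 36 genes. The sum over all 40 genes made up 1.02% to 2.01% of the FPKM of a library.

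**Figure D1:**
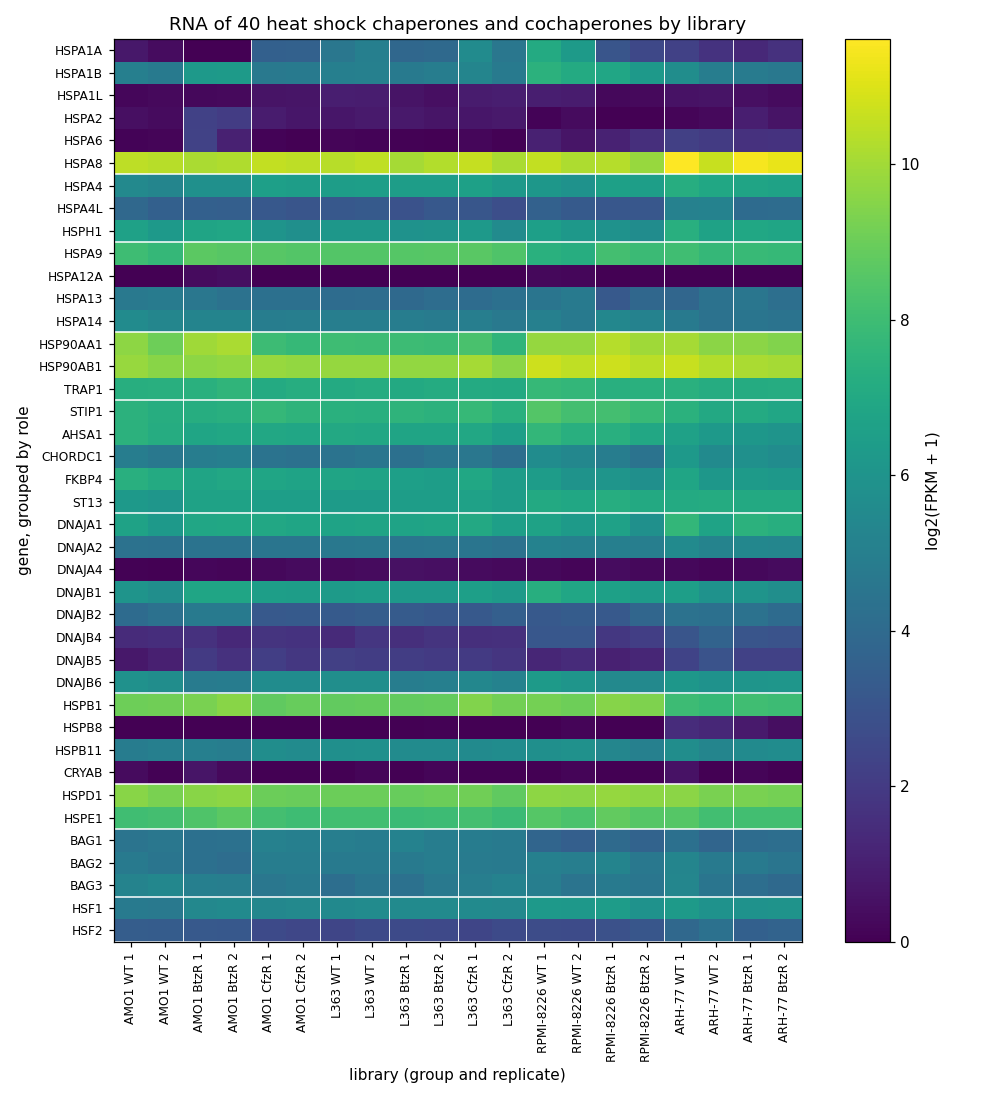
Heat map of log2(FPKM + 1) for the 40 genes (rows, grouped by role) in the 20 libraries (columns, named by group and replicate), with brighter colours for higher levels. HSPA8 and HSP90AB1 are bright in every library, HSPA1A is dark in AMO1 WT and BtzR, and the libraries labelled AMO1 CfzR resemble the L363 columns.

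Groups were compared on log2(FPKM + 1) by the moderated test of limma, fitted to all 20 libraries, and a gene passed at an adjusted p under 0.05, after Benjamini-Hochberg adjustment over all 13089 genes tested. It was called 2-fold where the log2-fold change was also at least 1 in size. The added 1 FPKM understates the change of genes with low values. In the F test between the 4 WT lines, 33 of 36 chaperone genes passed, a share near the 92.6% of all genes, and HSPE1, DNAJA1 and BAG2 did not pass. HSPB8 is counted among the 33, although ARH-77 WT, a group of this F test, brought it into the test.

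AMO1 BtzR cells had higher RNA for part of the chaperone genes than AMO1 WT cells. Of the 36 genes, 13 were higher, beside 25.6% of all genes tested, and 2 were lower, beside 25.6%. The genes called 2-fold were HSPA1B, HSPA2 and HSPA6, 3 of 36 beside 9.18% of all genes. Among the 34 genes that reached 1 FPKM in more than 1 group, thus without HSPA2 and HSPB8, 12 were higher and 2 called 2-fold. The median log2-fold change was 0.12 over the 36 chaperone genes and -0.00 over all genes. Over the chaperone genes, the median difference of replicate 1 from replicate 2 was 0.15 log2 units in WT and -0.02 in BtzR cells. The genes that rose came from several classes, with HSP70 (HSPA1B, HSPA2, HSPA6), the HSP110 gene HSPA4, mitochondrial HSPA9 and HSPE1, HSP90AA1, the J-domain genes DNAJB1, DNAJB2 and DNAJB5, HSPB1, ST13 and HSF1. DNAJB6 and AHSA1, an activator of the HSP90 ATPase, were the 2 genes that fell, and 1 gene was lower without WT replicate 1 or without either BtzR library.

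L363 BtzR cells showed a single difference. None of the 36 genes passed as higher than in L363 WT by limma, beside 5.66% of all genes and with 0 genes at an unadjusted p under 0.05, and 1, DNAJB6, passed as lower, beside 5.52%. No chaperone gene was called 2-fold by limma, with or without adjustment, beside 2.06% of all genes. The median log2-fold change was -0.06 over these genes and 0.00 over all genes.

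RPMI-8226 BtzR cells had 10 of 36 chaperone genes lower than RPMI-8226 WT cells, a share near the 24.2% of all genes. They had 5 of 36 higher, beside 30.2%. Those called 2-fold, 3 of 36 beside 13.8% of all genes, were HSPA1A, HSPA13 and DNAJB4, each lower. The median log2-fold change was -0.15 over the chaperone genes and 0.05 over all genes. Over the chaperone genes, replicate 1 lay a median of 0.21 log2 units above replicate 2 in WT and 0.23 in BtzR cells. The other genes that fell were HSPA1B, HSPH1, TRAP1, CHORDC1, DNAJB1, DNAJB6 and HSPB11, and those that rose were HSPA4, HSPA9, HSPA14, HSPB1 and HSF2. Without BtzR replicate 2, 6 genes were lower, and without WT replicate 2, 2 were higher.

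ARH-77 BtzR cells, which are not myeloma cells, had 4 of 36 genes lower than ARH-77 WT cells, beside 7.6% of all genes, and 1 of 36 higher, HSPA2, beside 5.98%. HSPA4L was the 1 gene called 2-fold, beside 1.6% of all genes, and it was lower. BAG3 and HSF2 also fell, and HSPB8 was the other gene counted as lower, so that without HSPA2 and HSPB8 there were 3 lower and 0 higher of 34. The count of lower genes was 8 without WT replicate 2 and 2 without BtzR replicate 1. The median log2-fold change was -0.22 over the chaperone genes and -0.04 over all genes, while the WT replicates were a median of 0.37 log2 units apart over these genes.

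L363 CfzR cells had HSPB1 higher and DNAJB6 lower than L363 WT cells, 1 gene of 36 in each direction, beside 4.88% and 3.58% of all genes. No chaperone gene was called 2-fold by limma, with or without adjustment, beside 1.93% of all genes. Against L363 BtzR cells, HSPA1A and HSPB1 were higher in CfzR cells, 2 of 36 beside 3.27% of all genes, and none was lower by limma, beside 2.87% and with 0 genes at an unadjusted p under 0.05. Of these, HSPA1A was the 1 gene called 2-fold, beside 1.47% of all genes. Both drugs were used at the same concentration in these cells.

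The libraries labelled AMO1 CfzR differed from AMO1 WT in more chaperone genes than from L363 WT. Against AMO1 WT, 10 of 36 genes were higher, beside 26.8% of all genes, and 9 of 36 were lower, beside 30.9%, with 4 lower without AMO1 WT replicate 1. HSPA1A, HSPA4, DNAJB5 and HSP90AA1 were called 2-fold, 4 of 36 beside 17.1%. Against L363 WT, no gene was higher by limma, beside 3.52% of all genes and with 0 genes at an unadjusted p under 0.05, and HSPA1A was lower, 1 of 36 beside 3.4%, and was the 1 gene called 2-fold, beside 1.66%.

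Averaged over the 4 lines, with equal weight for each, 6 of 36 genes were higher in BtzR cells, beside 25.5% of all genes, and 8 of 36 were lower, beside 26.8%, with 13 lower without ARH-77 WT replicate 2. Without HSPA2 and HSPB8, 5 were higher and 7 lower of 34. HSPA1A was the 1 gene called 2-fold, beside 1.7% of all genes. Among the 36 genes, 22 had a BtzR effect that was unequal between lines by the F test of this interaction, beside 71.1% of all genes. HSPA2 and HSPB8 are counted among the 22. They entered the test through AMO1 BtzR or ARH-77 WT, groups that this F test compares, so that their part in the count is a description. HSPA8, HSP90AB1, HSPD1, STIP1, FKBP4 and AHSA1 were among the genes that did not pass that test.

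**Figure D2:**
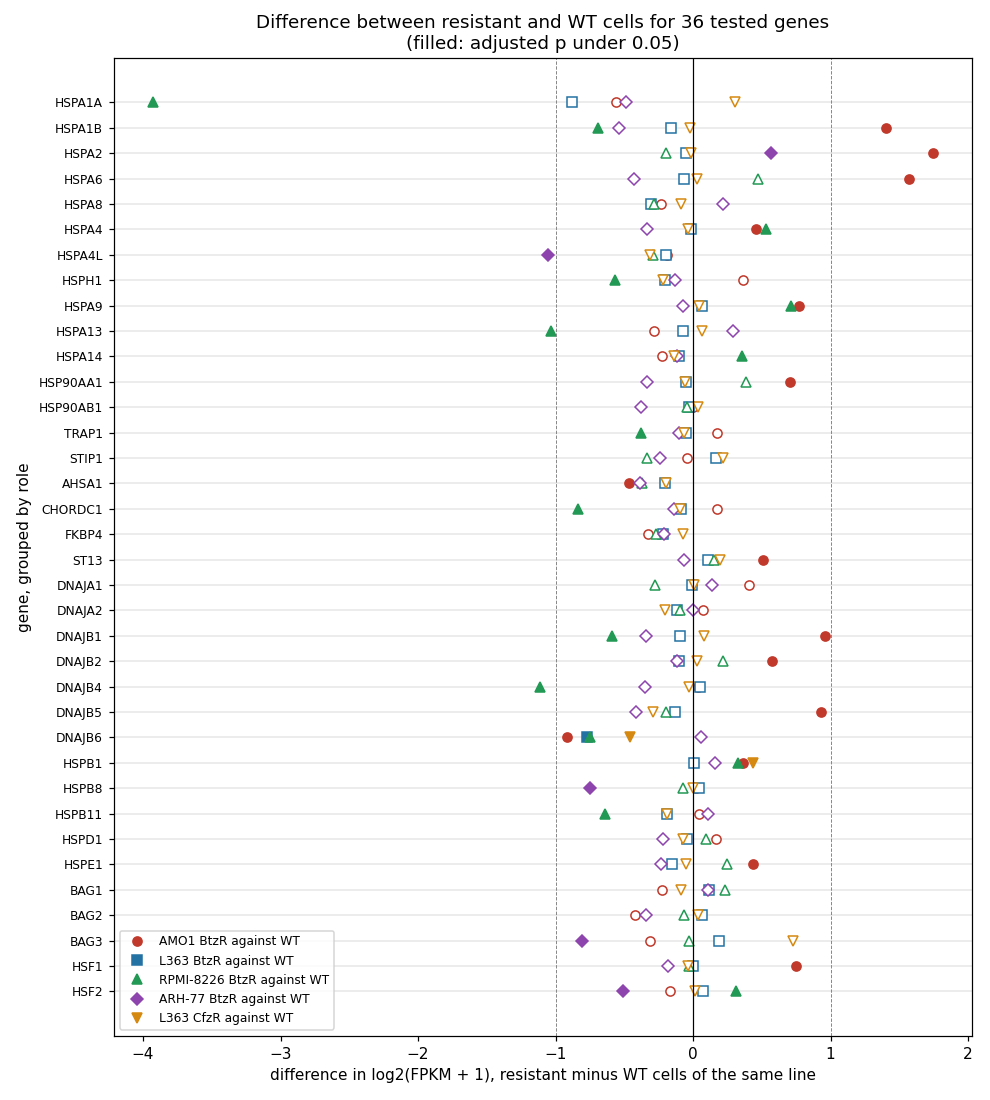
Difference in log2(FPKM + 1) between resistant and WT cells of the same line (x axis) for the 36 tested genes (y axis, grouped by role), with a symbol for each of 5 comparisons, filled where the limma adjusted p was under 0.05 and with dashed lines at 1 and -1. HSPA1A in RPMI-8226 BtzR lies far to the left at -3.93, and the filled symbols of DNAJB6 lie to the left in 4 comparisons.

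HSPA1B, one of the inducible HSP70 genes, was at 31.7 and 26.1 FPKM in AMO1 WT and at 76.1 and 79.0 FPKM in AMO1 BtzR. It was at 31.6 and 31.9 FPKM in L363 WT, at 26.7 and 29.8 in its BtzR cells, at 37.5 and 25.9 in its CfzR cells and at 24.8 and 25.4 in the libraries labelled AMO1 CfzR. RPMI-8226 had the highest levels, 176.4 and 135.3 FPKM in WT and 116.9 and 77.3 in BtzR cells, and ARH-77 had 49.97 and 29.1 in WT and 27.6 and 24.3 in BtzR cells. The BtzR libraries thus lay above both WT libraries in AMO1, and below both in L363, RPMI-8226 and ARH-77. The log2-fold change was 1.40 ± 0.23 (SE) in AMO1 BtzR (limma adjusted p = 0.000179) and -0.69 ± 0.23 in RPMI-8226 BtzR (limma adjusted p = 0.0212), and neither L363 group nor ARH-77 BtzR passed.

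HSPA1A, its near-identical copy, was almost absent from AMO1, at 0.66 and 0.31 FPKM in WT cells and listed at 0 in both BtzR libraries. The libraries labelled AMO1 CfzR had 10.8 and 11.2 FPKM, and in L363 it was at 23.3 and 30.9 in WT, 13.6 and 14.7 in BtzR and 47.3 and 23.5 in CfzR cells. RPMI-8226 WT had 135.1 and 78.7 FPKM against 7.28 and 4.64 in BtzR cells, and ARH-77 had 3.81 and 2.28 in WT and 1.51 and 2.2 in BtzR cells. The fall in RPMI-8226 BtzR was the largest of any chaperone gene in the 8 comparisons of 2 groups, with a log2-fold change of -3.93 ± 0.31 (SE, limma adjusted p = 5.64e-08). In L363 BtzR the change was -0.88 ± 0.31, which did not pass (limma adjusted p = 0.0872), although both BtzR libraries lay below both WT libraries. The average over the 4 lines was -1.46 ± 0.15 (limma adjusted p = 2.12e-06) and took in -0.49 in ARH-77, -0.56 in AMO1, -0.88 in L363 and -3.93 in RPMI-8226. The libraries labelled AMO1 CfzR were 3.02 ± 0.31 log2 units above AMO1 WT (limma adjusted p = 8.17e-07) and 1.21 ± 0.31 below L363 WT, a log2-fold change of -1.21 (limma adjusted p = 0.0262) that no longer passed when any of these 4 libraries was left out. L363 CfzR was 1.18 ± 0.31 log2 units above L363 BtzR (limma adjusted p = 0.0324), with replicates 0.98 log2 units apart in CfzR cells. The difference was 0.69 without CfzR replicate 1, and it no longer passed without that library or either BtzR library.

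Because reads may be divided wrongly between these copies, their FPKM were also summed, a choice made after seeing the data. The sum was 29.4 ± 4.16 FPKM (SD, n = 2) in AMO1 WT and 77.5 ± 2.03 in AMO1 BtzR, a log2-fold change of 1.38 ± 0.27 (limma adjusted p = 0.000642). In RPMI-8226 it was 262.7 ± 69.0 in WT and 103 ± 29.9 in BtzR cells, a change of -1.35 ± 0.27 (limma adjusted p = 0.000642). No other comparison of 2 groups passed for the sum. The average over the lines was -0.25 ± 0.13 and did not pass (limma adjusted p = 0.142), nor did the libraries labelled AMO1 CfzR differ from AMO1 WT (0.29 ± 0.27, adjusted p = 0.377) or L363 CfzR from L363 BtzR (0.60 ± 0.27, adjusted p = 0.300). HSPA1A made up 36.8% to 43.4% of the sum in RPMI-8226 WT and 5.67% to 5.86% in RPMI-8226 BtzR. In AMO1 WT its share was 1.17% to 2.04%, in the libraries labelled AMO1 CfzR 30.3% to 30.7%, and in the L363 groups 33.1% to 55.7%. In ARH-77 the share was 5.18% to 8.3%.

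**Figure D3:**
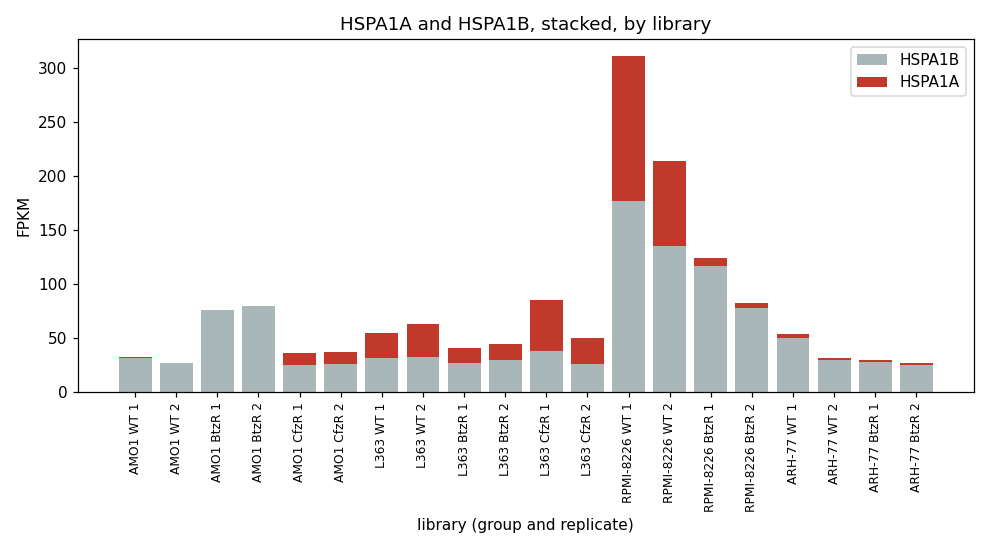
Stacked bars of the FPKM (y axis, from 0) of HSPA1B (grey) and HSPA1A (red) in each of the 20 libraries (x axis). The sum is highest in RPMI-8226 WT at 311.4 and 213.9 FPKM, and the red part is absent from AMO1 BtzR and large in L363 and RPMI-8226 WT.

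HSPA2, a member of the HSP70 family best known from the testis, was at 0.38 and 0.27 FPKM in AMO1 WT and at 3.75 and 3.14 in AMO1 BtzR, a log2-fold change of 1.74 that is given as a description, since these libraries brought the gene into the test. The libraries labelled AMO1 CfzR had 0.84 and 0.65 FPKM, and its level was between 0.57 and 0.79 in the 6 L363 libraries. In RPMI-8226 it was at 0.08 and 0.27 in WT and at 0.02 in both BtzR libraries. In ARH-77 it was at 0.11 and 0.23 in WT and 0.97 and 0.52 in BtzR cells, a difference of 0.57 ± 0.12 that passed (limma adjusted p = 0.00652). All ARH-77 libraries were below 1 FPKM, where the counting error is unknown, and the BtzR replicates were 0.37 log2 units apart. Both AMO1 BtzR libraries were above every other library, at a low level.

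HSPA6, a strictly stress-inducible HSP70, was listed at 3.97 and 1.10 FPKM in AMO1 BtzR and at 0.07 and 0.11 in AMO1 WT. In L363 and in the libraries labelled AMO1 CfzR it did not exceed 0.17 FPKM. It was at 1.07 and 0.59 in RPMI-8226 WT, 1.16 and 1.93 in RPMI-8226 BtzR, 3.60 and 3.01 in ARH-77 WT and 2.14 and 2.23 in ARH-77 BtzR. The AMO1 libraries did not overlap, but the log2-fold change of 1.57 ± 0.27 (limma adjusted p = 0.000223) rests on replicates 1.24 log2 units apart and was 0.95 without BtzR replicate 1, no longer 2-fold. Of the 50-base words of HSPA6, 45.52% also occur in non-coding transcripts of other genes.

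HSPA8 did not pass in any comparison of 2 groups by limma, with log2-fold changes between -0.30 and 0.21 over the 5 comparisons of resistant cells with WT cells of the same line. Its highest values were in ARH-77, with 3131 and 1588 FPKM in WT and 2772 and 2416 in BtzR cells, and the ARH-77 WT replicates bracketed both BtzR libraries.

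The HSP110 genes differed in direction. HSPA4L was at 33.4 and 34.3 FPKM in ARH-77 WT and at 15.6 and 16.0 in ARH-77 BtzR, a log2-fold change of -1.05 ± 0.13 (SE, limma adjusted p = 8.6e-05). Elsewhere it was lower, at 14.1 and 10.96 in AMO1 WT, 10.96 and 10.5 in AMO1 BtzR, 8.29 and 7.37 in the libraries labelled AMO1 CfzR, 8.28 and 8.82 in WT, 6.60 and 8.11 in BtzR and 7.50 and 5.91 in CfzR cells of L363, 11.3 and 8.86 in RPMI-8226 WT and 7.98 and 8.02 in RPMI-8226 BtzR. ARH-77 WT thus stood above all other groups, and both BtzR libraries of ARH-77 were still above every myeloma library. HSPA4 was at 42.8 and 37.7 FPKM in AMO1 WT and rose to 55.1 and 56.2 in AMO1 BtzR (log2-fold change 0.46 ± 0.12, limma adjusted p = 0.00414), and from 69.3 and 58.9 in RPMI-8226 WT to 96.2 and 88.9 in RPMI-8226 BtzR (0.53 ± 0.12, limma adjusted p = 0.00141). It was at 92.4 and 87.2 in the libraries labelled AMO1 CfzR, 1.14 ± 0.12 log2 units above AMO1 WT (limma adjusted p = 8.04e-07) but within the 77.5 to 95.4 FPKM of the L363 libraries. In ARH-77 it was at 150.0 and 119.5 in WT and 108.1 and 103.7 in BtzR cells, a difference that did not pass. HSPH1 ranged from 47.0 to 157.0 FPKM and fell in RPMI-8226 BtzR by 0.57 ± 0.21 on the log2 scale.

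HSPA9, the mitochondrial HSP70 also called mortalin, rose in AMO1 BtzR from 252.9 and 215.0 to 413.0 and 382.9 FPKM, by 0.77 ± 0.12 log2 units (limma adjusted p = 7.88e-05), and in RPMI-8226 BtzR from 166.2 and 151.5 to 278.1 and 242.8 FPKM, by 0.71 ± 0.12 (limma adjusted p = 0.00013). The L363 and ARH-77 groups did not pass against their WT cells. Of the mitochondrial chaperonin, HSPD1, which forms its ring, passed in none of the 5 comparisons by limma at 440.0 to 866.4 FPKM, and its lid HSPE1 rose in AMO1 BtzR only, by 0.44 ± 0.14 (limma adjusted p = 0.0165). TRAP1, the mitochondrial HSP90, fell in RPMI-8226 BtzR by 0.38 ± 0.09 on the log2 scale (limma adjusted p = 0.00255). The mitochondrial genes thus moved in different directions and lines.

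HSPA13, a microsomal HSP70 relative, was at 21.7 and 25.4 FPKM in RPMI-8226 WT and at 8.57 and 13.9 in RPMI-8226 BtzR, a log2-fold change of -1.04 ± 0.20 (limma adjusted p = 0.00045), which ranged from -1.35 to -0.72 as single libraries were left out and was below 2-fold without RPMI-8226 WT replicate 2 or BtzR replicate 1. It was at 24.6 and 27.7 in AMO1 WT, 23.2 and 19.5 in AMO1 BtzR, 18.6 in both libraries labelled AMO1 CfzR, and in L363 16.3 and 16.6 in WT, 14.5 and 16.8 in BtzR and 16.1 and 18.3 in CfzR cells. In ARH-77 it was at 13.4 and 19.9 in WT and 22.8 and 17.97 in BtzR cells, with overlapping groups. The RPMI-8226 BtzR libraries were the lowest and the third lowest of the 20.

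HSP90AA1, the inducible cytosolic HSP90, was at 792.2 and 526.0 FPKM in AMO1 WT and 987.9 and 1122 in AMO1 BtzR, a log2-fold change of 0.70 ± 0.22 (limma adjusted p = 0.0162). The libraries labelled AMO1 CfzR had 248.0 and 221.7 FPKM, 1.46 ± 0.22 log2 units below AMO1 WT, a log2-fold change of -1.46 (limma adjusted p = 5.37e-05). The L363 libraries had similar levels, 260.1 and 249.3 in WT, 249.9 and 240.7 in BtzR and 313.1 and 189.8 in CfzR cells. RPMI-8226 had 868.2 and 865.9 in WT and 1272 and 1003 in BtzR cells, and ARH-77 had 1065 and 763.3 in WT and 763.8 and 670.4 in BtzR cells. Levels in L363 and in the libraries labelled AMO1 CfzR were below those of all other libraries, and the change in RPMI-8226 BtzR, 0.38 ± 0.22, did not pass although the groups did not overlap. HSP90AB1, the constitutive form, passed in none of the 5 comparisons by limma.

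Among the cochaperones, STIP1 and FKBP4 passed in none of the 5 comparisons of resistant with WT cells of the same line by limma, at 114.7 to 357.5 and 54.4 to 160.4 FPKM. AHSA1 fell in AMO1 BtzR by 0.47 ± 0.16 on the log2 scale (limma adjusted p = 0.0272) and on average over the 4 lines by 0.36 ± 0.08 (limma adjusted p = 0.00202), with changes below 0 in all 5 comparisons. ST13, which binds HSP70 and HSP90, rose in AMO1 BtzR by 0.51 ± 0.08 (limma adjusted p = 0.000128), and 30.71% of its 50-base words occur in other transcripts. CHORDC1, an HSP90 partner with the motif run shown above, fell in RPMI-8226 BtzR from 49.2 and 40.4 to 29.5 and 20.2 FPKM, by 0.84 ± 0.21 (limma adjusted p = 0.00362).

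DNAJB6, a J-domain protein known to keep aggregating proteins soluble, was the chaperone gene that passed as lower most often. It did so in 4 of the 5 comparisons of resistant with WT cells of the same line. Both L363 comparisons among these share their WT libraries, and DNAJB6 was singled out after its values were seen. How many of all genes tested passed as lower that often was not counted. Taken singly, 25.6% of all genes were lower in AMO1 BtzR, 5.52% in L363 BtzR, 24.2% in RPMI-8226 BtzR and 3.58% in L363 CfzR. In AMO1, DNAJB6 was at 57.0 and 51.0 FPKM in WT and 27.9 and 28.3 in BtzR cells. This gave a log2-fold change of -0.92 ± 0.10 (SE, limma adjusted p = 4.73e-06). In L363 it was at 52.2 and 52.6 in WT, 28.9 and 31.7 in BtzR (-0.77 ± 0.10, limma adjusted p = 0.000126) and 40.9 and 34.8 in CfzR cells (-0.46 ± 0.10, limma adjusted p = 0.0095). In RPMI-8226 it was at 80.3 and 66.2 in WT and 42.6 and 43.4 in BtzR cells, a change of -0.75 ± 0.10 (limma adjusted p = 2.43e-05). All resistant libraries of these lines lay below both WT libraries of their line. ARH-77 had 69.5 and 59.2 FPKM in WT and 65.7 and 67.8 in BtzR cells, which overlapped (0.06 ± 0.10). The libraries labelled AMO1 CfzR had 48.4 and 49.9 FPKM. They did not pass against AMO1 WT (-0.13 ± 0.10, limma adjusted p = 0.3005) or against L363 WT (-0.09 ± 0.10, limma adjusted p = 0.8277). The average over the 4 lines was -0.59 ± 0.05 (limma adjusted p = 3.05e-07), and the BtzR effect was unequal between lines (limma adjusted p = 0.000154). L363 CfzR did not differ from L363 BtzR by this test (0.31 ± 0.10, limma adjusted p = 0.118). In L363 CfzR the call was lost without either L363 WT library or without CfzR replicate 2. Of its 50-base words, 19.09% also occur in other transcripts.

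DNAJB1, the main partner of inducible HSP70, rose in AMO1 BtzR from 63.3 and 52.8 to 112.9 and 114.2 FPKM, by 0.96 ± 0.17 log2 units (limma adjusted p = 0.000341), and fell in RPMI-8226 BtzR from 155.0 and 115.1 to 95.9 and 81.3 FPKM, by 0.59 ± 0.17 (limma adjusted p = 0.00988). The BtzR effect on it was unequal between lines (limma adjusted p = 0.000312), with directions opposite in AMO1 and RPMI-8226 as for HSPA1B. DNAJB4 was at 7.85 and 7.81 FPKM in RPMI-8226 WT and 2.72 and 3.47 in RPMI-8226 BtzR, a log2-fold change of -1.11 ± 0.18 (limma adjusted p = 0.00012), which was -0.98 without BtzR replicate 1. It was at 1.66 and 1.83 in AMO1 WT, 2.13 and 1.53 in AMO1 BtzR, 2.38 and 2.21 in the libraries labelled AMO1 CfzR, 1.57 and 2.58 in WT, 1.97 and 2.31 in BtzR and 1.92 and 2.03 in CfzR cells of L363, and 7.43 and 11.8 in WT and 7.47 and 6.85 in BtzR cells of ARH-77. The BtzR cells of RPMI-8226 lay near the AMO1 and L363 range and its WT cells near that of ARH-77. DNAJB5 was at 0.70 and 1.02 FPKM in AMO1 WT, 2.92 and 2.18 in AMO1 BtzR (0.93 ± 0.18, limma adjusted p = 0.000629) and 3.47 and 2.64 in the libraries labelled AMO1 CfzR (1.12 ± 0.18 against AMO1 WT, limma adjusted p = 8.96e-05). In L363 it was at 3.66 and 3.31 in WT, 3.31 and 2.88 in BtzR and 2.93 and 2.41 in CfzR cells, in RPMI-8226 at 1.36 and 1.73 in WT and 1.07 and 1.36 in BtzR cells, and in ARH-77 at 4.06 and 6.86 in WT and 3.73 in both BtzR libraries. AMO1 WT had the lowest values of DNAJB5 in the series. DNAJB2 rose in AMO1 BtzR by 0.57 ± 0.17, and DNAJA1 and DNAJA2 passed in none of the 5 comparisons by limma.

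**Figure D4:**
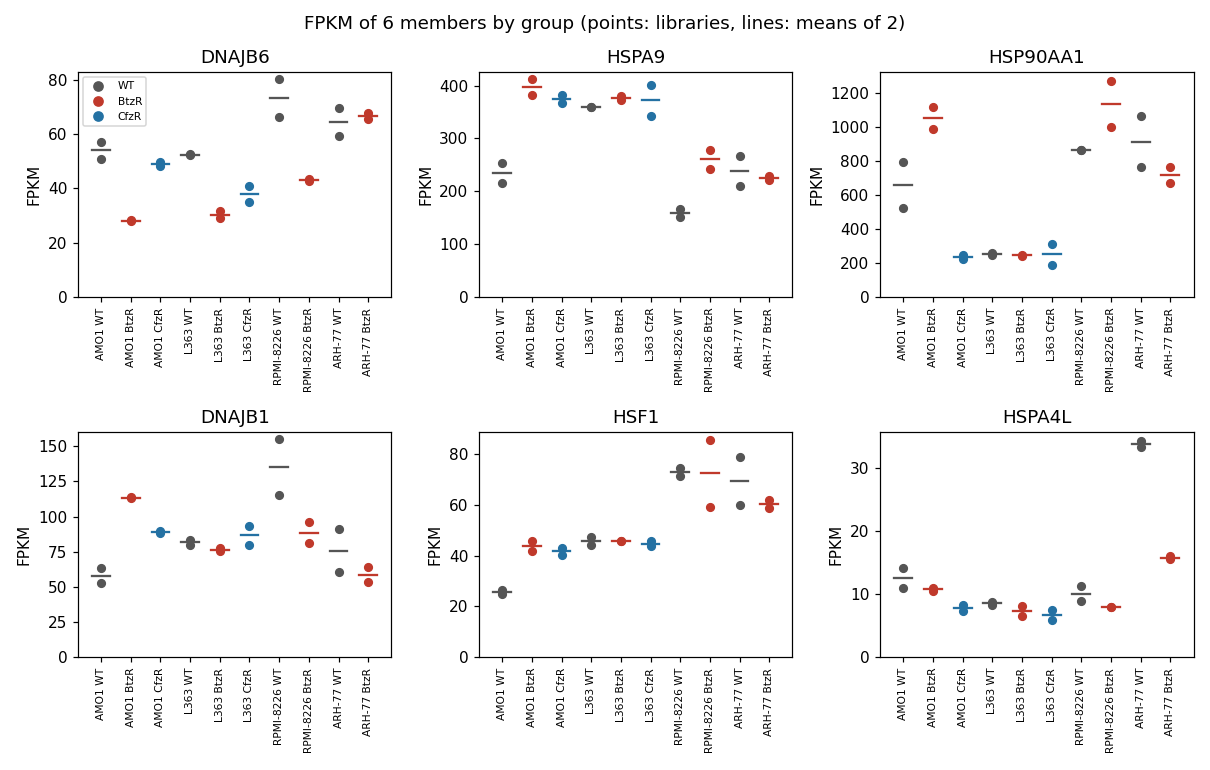
FPKM (y axes, from 0) of DNAJB6, HSPA9, HSP90AA1, DNAJB1, HSF1 and HSPA4L by group (x axes), with a point for each library and a line at the mean of 2, grey for WT, red for BtzR and blue for CfzR. DNAJB6 is lower in the BtzR cells of AMO1, L363 and RPMI-8226 but not of ARH-77, and in HSP90AA1 and HSPA9 the libraries labelled AMO1 CfzR lie at the level of L363.

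HSPB1, the most abundant small HSP at 216.3 to 754.4 FPKM, rose in L363 CfzR from 445.0 and 471.3 to 688.1 and 555.1 FPKM, by 0.43 ± 0.12 log2 units (limma adjusted p = 0.0302), while L363 BtzR stayed at 458.5 and 460.1. CfzR exceeded BtzR cells of this line by 0.43 ± 0.12 (limma adjusted p = 0.04). The call against WT was lost without either WT library, without CfzR replicate 1 and with no filter on low values, and that against BtzR without either BtzR library or CfzR replicate 1. It also rose in AMO1 BtzR (0.36 ± 0.12, limma adjusted p = 0.0171) and RPMI-8226 BtzR (0.33 ± 0.12, limma adjusted p = 0.0266). HSPB8, the partner of BAG3 in selective autophagy, was at 1.81 and 1.44 FPKM in ARH-77 WT and 0.79 and 0.35 in ARH-77 BtzR (a log2-fold change of -0.75, given as a description because ARH-77 WT brought the gene into the test), and did not exceed 0.11 FPKM in any myeloma library. BAG3 fell in the same comparison from 38.8 and 21.6 to 17.6 and 14.9 FPKM, by 0.81 ± 0.22 (limma adjusted p = 0.0261), with WT replicates 0.82 log2 units apart. In L363 CfzR, BAG3 was at 30.6 and 34.2 FPKM against 17.2 and 21.5 in WT, a difference of 0.72 ± 0.22 that did not pass (limma adjusted p = 0.0645). BAG1 and BAG2 passed in none of the 5 comparisons by limma.

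HSF1, the main heat shock factor, was at 26.6 and 24.8 FPKM in AMO1 WT and 42.0 and 45.9 in AMO1 BtzR, a rise of 0.75 ± 0.14 log2 units (limma adjusted p = 0.000473). AMO1 WT had the lowest levels of the series, and the L363 libraries lay between 43.6 and 47.5 FPKM. In RPMI-8226 the BtzR replicates, at 85.6 and 59.3, bracketed the WT values of 74.4 and 71.4. HSF2 rose in RPMI-8226 BtzR by 0.31 ± 0.12 and fell in ARH-77 BtzR by 0.51 ± 0.12. RNA of the factor is not its activity, which was not measured.

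Replicates of several groups differed in these genes by more than in most genes. In ARH-77 WT, 29 of the 36 genes were higher in replicate 1, with a median difference of 0.37 log2 units, when 38.7% of all genes were higher there and their median was -0.05. The corresponding values were 30 of 36 and 0.21 in RPMI-8226 WT (44.7% of all genes), 28 of 36 and 0.23 in L363 CfzR (39.7%), 25 of 36 and 0.23 in RPMI-8226 BtzR (50.3%) and 24 of 36 and 0.15 in AMO1 WT (44.1%). In L363 WT and L363 BtzR the medians were -0.01 and -0.03. In the libraries labelled AMO1 CfzR and in ARH-77 BtzR, 26 and 25 of 36 genes were higher in replicate 1 (45.4% and 42.8% of all genes), with smaller medians of 0.07 and 0.08. The chaperone genes thus mostly lay higher in replicate 1 of 7 groups, a description with no test, and what same-numbered replicates share is not given in the sources used here. The part of this shift in the group differences was not tested.

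**Figure D5:**
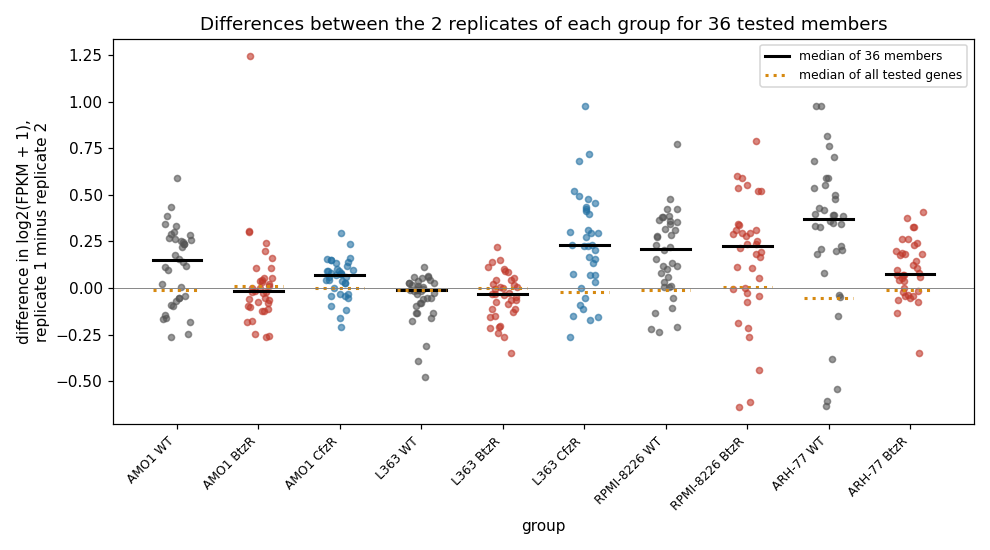
Difference in log2(FPKM + 1) between replicate 1 and replicate 2 (y axis) of each group (x axis), with a point for each of the 36 tested genes, a black line at their median and a dotted orange line at the median of all tested genes. The black line lies above the dotted line by 0.15 or more in AMO1 WT, L363 CfzR, both RPMI-8226 groups and ARH-77 WT.

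Of 55 further genes of the same folding machinery, 49 were tested: the TRiC chaperonin, prefoldin and further cochaperones, J-domain, mitochondrial and small HSP genes. By limma, 12 rose and 17 fell in AMO1 BtzR, beside 25.6% of all genes in each direction, and 16 rose and 13 fell in RPMI-8226 BtzR, beside 30.2% and 24.2%. In L363 BtzR 1 rose and 1 fell (5.66% and 5.52% of all genes), in ARH-77 BtzR 1 rose and 4 fell (5.98% and 7.6%), and in L363 CfzR 2 rose and none fell (4.88% and 3.58%). Rises and falls stood side by side in AMO1 and RPMI-8226 BtzR. CCT2, a TRiC subunit, was at 484.9 and 449.4 FPKM in AMO1 WT and 200.7 and 200.8 in AMO1 BtzR, a log2-fold change of -1.21 ± 0.14 (limma adjusted p = 7.73e-06), whereas the libraries of the other lines lay between 118.6 and 240.9 FPKM. The AMO1 BtzR values thus lay within the range of the other lines. Also called 2-fold in AMO1 BtzR were DNAJB9, a J-domain protein of the endoplasmic reticulum, at -1.02 ± 0.17, HSF4 at 1.16 ± 0.16 and HSPB7 at 1.04 ± 0.13. In RPMI-8226 BtzR, UNC45A, an HSP90 cochaperone for myosin, went from 34.5 and 35.8 to 12.4 and 11.4 FPKM (-1.49 ± 0.08, limma adjusted p = 6.2e-10), and BAG5 from 7.94 and 8.77 to 20.7 and 17.0 FPKM (1.08 ± 0.10, limma adjusted p = 3.81e-07). BAG5 was also at 15.5 and 13.9 FPKM in AMO1 WT and 26.0 and 27.2 in AMO1 BtzR, but this change was below 2-fold. In the libraries labelled AMO1 CfzR against AMO1 WT, TCP1 (-1.43 ± 0.15), CCT2 (-1.60 ± 0.14) and BAG5 (-1.13 ± 0.10) were lower and HSCB (1.04 ± 0.15) higher, with levels close to those of L363 in each.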

How the data were processed

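RNA extraction, library construction and sequencing on the BGISEQ-500 were done by BGI from frozen pellets of cell lines. The authors deposited FPKM values to 2 decimals for 18305 genes with NCBI gene IDs. The submitters' processing notes name HISAT2 2.0.4, Bowtie2 2.2.5 and RSEM 1.2.12, without roles, and the genome build is not given in the sources used here. Depth is unknown, and precision rests on 2 replicates a group. Libraries were grouped by their labels, and all value columns were used.

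Log2(FPKM + 1) was fitted with limma 3.58.1 in R 4.3.3, with a mean for each of 10 groups, 10 residual degrees of freedom and a mean-variance trend, for the 13089 genes that averaged 1 FPKM or more in some group. P-values were adjusted by Benjamini-Hochberg over all of these, for 8 comparisons of 2 groups, the average of the 4 BtzR effects and 2 moderated F tests. An exact permutation test of 2 libraries against 2 was not made, since its smallest p is 0.33. The fit was tested on data simulated for AMO1 BtzR alone, with planted changes above 2-fold and independent noise. That was no test of smaller changes, of low values or of shifts shared by many genes of a library.

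The genes and lists were chosen with earlier results of these data known. Genes called 2-fold against WT of the labelled line, against L363 WT for the libraries labelled AMO1 CfzR or on average over the lines are described with all values, genes at 100 FPKM or more in all libraries by range, and the others by range and counts. Any other gene given with its values was chosen after these were seen. Promoter windows were taken from RefSeq on GRCh38.p14, and shared words from longest transcripts of GENCODE. Python 3.11.15, pandas 2.3.3, numpy 2.4.6 and matplotlib 3.10.9 were used.

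Alternatives were pseudocounts of 0.1 and 0.01, no filter or one of 5 FPKM, rescaling to equal sums (TPM), quantile normalization, no trend, a replicate block, a fit without the libraries labelled AMO1 CfzR, leaving out each library in turn and, added after seeing the data, HSPA1A and HSPA1B summed. RNA is all that was measured here, and protein values of the study were not used.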

Additional observations from a re-analysis of the deposited data

Results flagged for a closer look

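The BtzR effect was unequal between the 4 lines, by limma's F test of the interaction, for each of the 7 chaperone genes that were called 2-fold in a BtzR comparison with WT. For HSPA1A, HSPA1B and HSPA2 the adjusted p of that test was 1.67e-05, 0.000218 and 8.32e-07. For HSPA4L and HSPA6 it was 0.00239 and 0.00165, and for HSPA13 and DNAJB4 it was 0.00462 and 0.00312. HSPA1B was the gene among them that passed in opposite directions, higher in AMO1 BtzR (log2-fold change 1.40) and lower in RPMI-8226 BtzR (-0.69). HSPA1A fell in RPMI-8226 BtzR (-3.93), HSPA2 rose most in AMO1 BtzR (1.74) and HSPA4L fell in ARH-77 BtzR (-1.05). These genes were taken because the effect in at least 1 line was large, and HSPA2 entered the test through AMO1 BtzR alone, so that the p-values are a description and no separate support. The same test passed for 71.1% of all genes, which were not chosen in that way. Groups of 2 libraries were too small for a test of single outlying libraries.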

How the results depend on the processing

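Outside leave-one-out, 250 recomputed counts of chaperone genes stayed within 1.5 times the reported count and 34 did not. The share of all genes that passed was not counted under any alternative or with a library left out. A shift in these counts can therefore not be called particular to the chaperone genes. Fold changes were recomputed only for the 2-fold calls and for DNAJB6 where it passed. None of these changed sign under any alternative, which was unlikely for changes chosen in this way. Outside leave-one-out, 11 of the recomputed values lost their call. HSPA1A in AMO1 BtzR had no call and was not among the changes recomputed. Its log2-fold change was -0.56 alone, while that of its sum with HSPA1B was 1.38. With a pseudocount of 0.1, the genes called 2-fold numbered 5 in AMO1 BtzR and 3 in ARH-77 BtzR, and with 0.01 they numbered 5 in AMO1 BtzR, 2 in ARH-77 BtzR and 7 in the libraries labelled AMO1 CfzR against AMO1 WT. With either pseudocount, 0 genes were lower and 0 called 2-fold in the libraries labelled AMO1 CfzR against L363 WT, and in L363 CfzR against L363 BtzR 1 gene was higher with 0.1, 0 with 0.01 and 0 called 2-fold with both. With no filter on low values, 2 genes were lower in L363 BtzR, 3 higher in RPMI-8226 BtzR and 0 higher in L363 CfzR against WT, 0 were called 2-fold in the libraries labelled AMO1 CfzR against L363 WT, and 1 was higher and 0 called 2-fold in L363 CfzR against BtzR. With a filter of 5 FPKM, which removes HSPA2 and HSPA6 from the test, 1 gene was called 2-fold in AMO1 BtzR and 0 were higher in ARH-77 BtzR. With TPM scaling, 4 genes were lower in AMO1 BtzR and 2 in L363 BtzR, 2 were called 2-fold in ARH-77 BtzR, 2 were lower in the libraries labelled AMO1 CfzR against L363 WT, and in L363 CfzR against BtzR 1 was higher and 0 called 2-fold. Quantile normalization left 1 gene higher in L363 CfzR against BtzR. With HSPA1A and HSPA1B summed, 0 genes were lower and 0 called 2-fold in the libraries labelled AMO1 CfzR against L363 WT, 1 was higher and 0 called 2-fold in L363 CfzR against BtzR, and 0 were called 2-fold on average over the lines. The cause of these shifts was not tested apart from the filter and the sum.

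Leaving out 1 library at a time, the genes lower in AMO1 BtzR numbered 1 to 3 (1 without AMO1 WT replicate 1 or either BtzR library), those lower in L363 BtzR 1 to 2 (2 without either L363 CfzR library), those higher in RPMI-8226 BtzR 2 to 5 (2 without WT replicate 2) and those lower there 6 to 12 (6 without BtzR replicate 2). In ARH-77 BtzR, 0 to 2 genes were higher (2 without WT replicate 1, 0 without BtzR replicate 1), 2 to 8 lower (8 without WT replicate 2, 2 without BtzR replicate 1) and 1 to 2 called 2-fold (2 without WT replicate 2). In L363 CfzR, 0 to 2 were higher than in WT (0 without either WT library or CfzR replicate 1, 2 without either ARH-77 WT library) and 0 to 1 lower (0 without either WT library or CfzR replicate 2), so that HSPB1 and DNAJB6 there rest on single libraries. Against BtzR cells, 0 to 2 were higher and 0 to 1 called 2-fold (0 of both without either BtzR library or CfzR replicate 1, and 1 higher without any of 8 other libraries, among them both AMO1 WT and both L363 WT libraries). In the libraries labelled AMO1 CfzR, 4 to 12 genes were lower than in AMO1 WT (4 without WT replicate 1), and 0 to 1 were lower than in L363 WT, with 0 to 1 called 2-fold (0 without any of these 4 libraries). On average over the lines 6 to 13 were lower (13 without ARH-77 WT replicate 2). DNAJB5 in the libraries labelled AMO1 CfzR against AMO1 WT ranged from 0.97 to 1.27 on the log2 scale.

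Same-numbered replicates deviated together with r between -0.0055 and 0.245 across all genes and between -0.285 (AMO1 BtzR) and 0.545 (RPMI-8226 BtzR) across the 36 chaperone genes, and no source says that a number marks a shared culture. With a replicate block, 7 genes were lower in ARH-77 BtzR in place of 4, and no other count moved by over 1.5 times. Without the libraries labelled AMO1 CfzR no count moved by that much. No scaling moved the median of all genes by over 0.1 log2 units. Depth is unknown, so values below 1 FPKM, such as HSPA2 outside AMO1 BtzR, cannot be given a counting error.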
